A study of Mus musculus with 8 samples.

Results

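Residual fibroblast RNA in pluripotent cultures is usually read from a panel of mesenchymal genes, and 37 such genes are described here, collagens left out. They were named as a list, and each is represented by its brightest probe set (highest mean over 8 arrays) among those annotated to that symbol alone. Of the 37, 36 had a probe set, out of 18193 genes in the annotation, and 32 lay above the limit on dim probe sets and were tested among 13125 genes. Fbn1 was not analysed here. Dcn, Lum, Ccl7 and Ptx3 lay below the limit, so they are given by their values alone.

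The samples are 8 mouse induced pluripotent stem (iPS) cell clones, each hybridised to 1 Affymetrix mouse genome array. All clones came from embryonic fibroblasts of Col-OKSM mice, whose doxycycline-inducible Oct4, Sox2, Klf4 and cMyc drive reprogramming, and ascorbic acid was in the medium of 4 of them from derivation on and absent from that of the other 4. The medium of both groups held serum, LIF and doxycycline, the feeders were irradiated fibroblasts, and before RNA extraction the cells were left on a bare plastic flask, where feeders attach first and are left behind. The series title speaks of B cells, while the labels of all 8 samples name embryonic fibroblasts, and the labels were followed. Neither the share of feeders that remained nor the embryo of origin of a clone is in the labels, so each p-value reflects the spread among these 8 clones, part of which may be technical.

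Fibroblasts build and remodel connective tissue matrix. They secrete fibronectin, proteoglycans and matricellular proteins, crosslink collagen and elastin with lysyl oxidases, respond to platelet-derived growth factor, and carry actin bundles and vimentin filaments. When fibroblasts are reprogrammed, the mesenchymal programme is shut down early and an epithelial one takes its place, while pluripotent cells keep some of these genes, such as vimentin and fibronectin, at a high level. A signal for a marker can therefore come from feeders, from the iPS cells or from both, and in a bulk sample fewer fibroblasts and less RNA per fibroblast cannot be told apart.

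The arrays were much alike, with correlations of log2 signal of 0.970 to 0.977 and median signals of 134 to 156. All 22 genes of a pluripotency list lay above the dim limit in these samples. So did 32 of the 36 fibroblast markers with a probe set, and 13125 of the 18193 genes in the annotation. Decorin (Dcn) and lumican (Lum) did not, and neither did Ccl7 and Ptx3. Dcn had signals of 70.9, 77.8, 170.2 and 13.8 in clones 1 to 4 with ascorbic acid. In clones 1 to 4 without it the signals were 165, 159, 20.5 and 92.4. Lum read 70.8, 67.2, 62.0 and 70.4 with and 66.7, 63.7, 70.0 and 41.6 without, and this order of clones is kept in all such series of values. The values of Dcn scatter over a wide range within both groups, and neither gene separates them. The dim limit itself corresponds to a signal of 93.7.

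Across clones, most of the markers stood high or low together. For each tested member the log2(signal + 16) of a clone was set against that gene's own mean of 8 clones, and the 32 deviations were averaged by clone. The mean was -0.06, 0.10, -0.18 and -0.12 in clones 1 to 4 with ascorbic acid and 0.15, 0.18, 0.048 and -0.11 in clones 1 to 4 without. Clone 2 with ascorbic acid thus lay among the high clones, clone 4 without lay among the low ones, and the groups overlapped. The span between the highest and the lowest clone, 0.36 log2, corresponds to a 1.29-fold difference in signal.

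**Figure D1:**
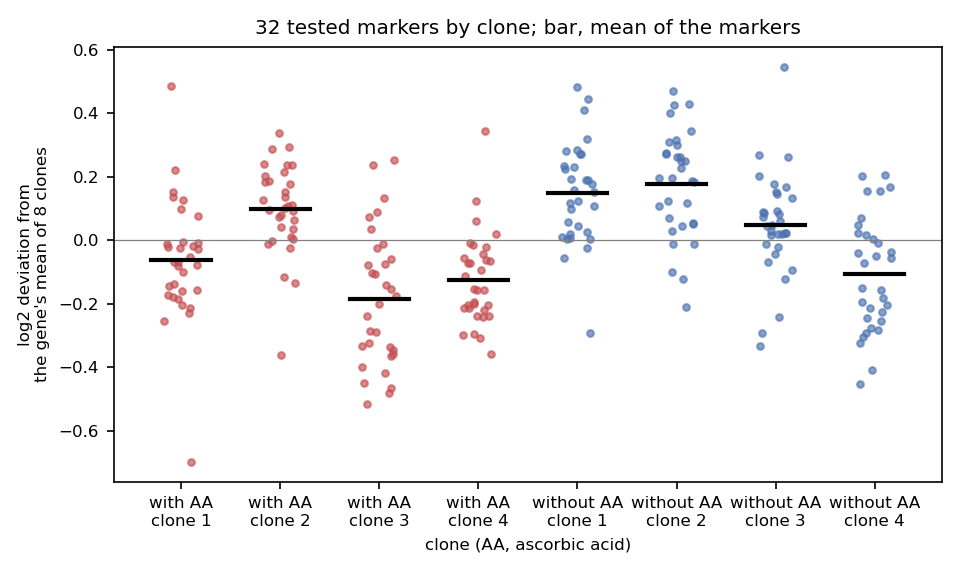
Deviation of each of the 32 tested markers (points) from its own mean of 8 clones, on the log2(signal + 16) scale, by clone, with the mean of the markers as a black bar. The bars of clone 3 with ascorbic acid (-0.18) and clone 2 without (0.18) lie farthest apart, and single markers such as Ccl2 lie far from the bar of their clone.

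Members were also counted. Above their own 8-clone median were 10, 24, 6 and 4 of the 32 members in clones 1 to 4 with ascorbic acid, and 27, 27, 21 and 9 in clones 1 to 4 without. Clones 1 and 2 without ascorbic acid thus held the most members above their median and clones 3 and 4 with ascorbic acid the fewest. Over all tested genes this share stayed between 48.1% and 51.3% in each clone. The highest clone was clone 2 without ascorbic acid for 16 members, against 11.7% of all tested genes, and the lowest was clone 3 with ascorbic acid for 15 members, against 12.6%. Of the 32 members, 29 had their highest signal in a clone without ascorbic acid and 23 their lowest in a clone with it, where all tested genes gave 48.4% and 52.2%. Under quantile normalization the mean deviations were -0.061, 0.11, -0.18 and -0.12 with and 0.15, 0.18, 0.041 and -0.11 without, and under median centring -0.14, 0.22, -0.12 and -0.16 with and 0.18, 0.15, -0.0076 and -0.12 without. Median centring thus put clone 2 with ascorbic acid highest of all; this array had the lowest median signal, 134.

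Pairs of members were correlated across the 8 clones after the mean of each group had been taken off. Over the 496 pairs the median Pearson r was 0.40 and 75.2% of pairs were above 0, whereas over all pairs of tested genes the median was -0.00012 and 50.0% were above 0. Among lists described below, the same median was 0.79 for proliferation genes, 0.51 for epithelial genes and 0.23 for pluripotency genes. It was 0.099 for macrophage and blood, 0.093 for primitive endoderm, 0.033 for endothelial and pericyte and -0.12 for trophectoderm genes. A high median was thus not particular to the markers. These are descriptions with no test: the pairs share genes and all use the same 8 arrays. Set against the mean of the other tested members, 28 of the 32 had an r above 0, 21 above 0.5 and 12 above 0.8. The r was below 0 for 4 markers (Tagln, Igfbp4, Tgfbi and Ccl2) and near 0 for Loxl1 (0.063) and Fn1 (0.091).

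**Figure D2:**
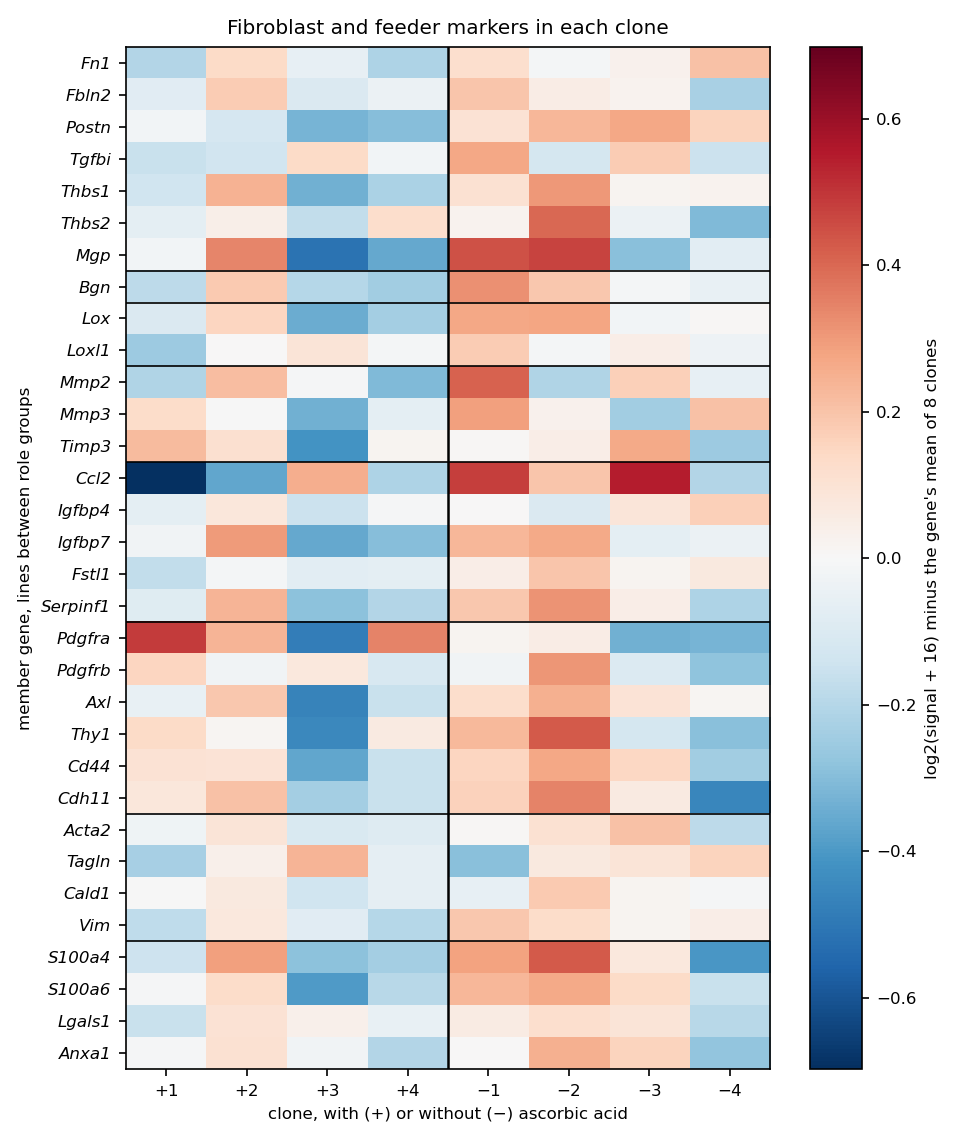
Deviation of each tested marker (rows, in role groups divided by lines) from its own mean of 8 clones, on the log2(signal + 16) scale, in clones 1 to 4 with (+) and without (−) ascorbic acid. Most rows are blue in clone 3 with and red in clone 2 without ascorbic acid, and the rows of Tagln, Ccl2, Tgfbi and Igfbp4 have another order.

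Compared between the groups, most markers had lower means with ascorbic acid, by small amounts. Of the 32 tested members 30 were lower, where 51.4% of all tested genes were, and the median log2 difference (with minus without) was -0.15 against -0.0042 over all tested genes. None passed the threshold in limma at an adjusted p of 0.05, which 0.0229% of the 13125 genes passed, and the smallest adjusted p of a member was 0.749. At an unadjusted limma p under 0.05 there were 4 members, all lower: Postn, Fstl1, Vim and Lox. Of all tested genes 5.83% had such a p, 2.77% lower and 3.06% higher. The groups did not overlap in 2 of the 32, Postn and Fstl1, both lower, against 1.57% of all tested genes lower and 2.06% higher. For both the exact two-sided permutation p was 0.0286, the smallest that 4 clones against 4 can give. The per-clone means averaged -0.068 ± 0.12 with and 0.068 ± 0.13 without (SD over 4 clones each), a difference of -0.14. It was -0.077 without clone 3 with ascorbic acid.

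**Figure D3:**
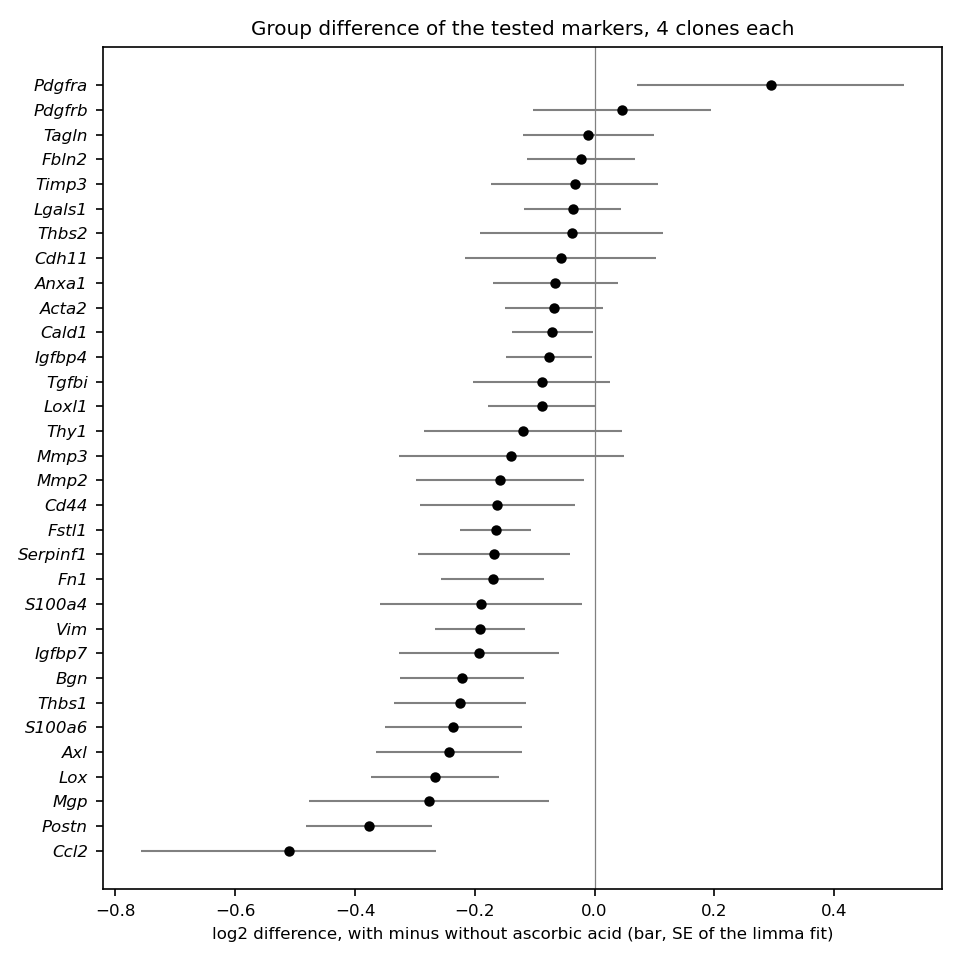
Log2 difference of each of the 32 tested markers, with minus without ascorbic acid, on the log2(signal + 16) scale, with the SE of the limma fit as a bar (4 clones per group). Points lie left of 0 for 30 markers, right of 0 for Pdgfra and Pdgfrb, and no adjusted p is under 0.749.

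The matrix glycoproteins were lower with ascorbic acid in all 7 tested members, with a median log2 difference of -0.17 and 0 past the threshold. Periostin (Postn), which organises collagen fibrils, had signals of 357, 333, 286 and 292 with and 389, 427, 440.2 and 405 without. Every clone with ascorbic acid lay below every clone without. The means were 317 ± 33.9 with and 416 ± 22.8 without (SD over 4 clones), a 1.3-fold higher level without ascorbic acid and a log2 difference of -0.38 ± 0.11 (SE; limma, unadjusted p = 0.00373, adjusted p = 0.749). Its r with the mean of the other members within groups was 0.39, so this gene, which separates the groups, followed the shared order of the clones loosely.

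Thrombospondin 1 (Thbs1), a matricellular protein that can activate latent TGF-beta, showed the shared pattern instead. It read 3941, 5125, 3432 and 3723 with and 4669, 5338, 4385 and 4407 without ascorbic acid, clone 2 being the highest of each group, and the groups overlapped. The log2 difference was -0.22 ± 0.11 (SE; limma, adjusted p = 0.844) and the r with the other members 0.84. Matrix Gla protein (Mgp), an inhibitor of calcification, had the widest range of this group, 685, 881, 480.1 and 538 with and 950.2, 967, 564 and 659.6 without, and was lowest in clone 3 with ascorbic acid and highest in clones 1 and 2 without. Its log2 difference of -0.28 ± 0.20 (SE) had a limma adjusted p of 0.87, and ran from -0.15 without clone 3 to -0.44 without clone 2 with ascorbic acid.

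Fibronectin (Fn1), the adhesive glycoprotein onto which cells assemble matrix, read 10845, 13732, 12008 and 10782 with and 13557, 12391, 12772 and 14403 without ascorbic acid. On this brightest probe set it was highest in clone 4 without, a clone in which most markers were low. Its r with the other members was 0.091. The log2 difference was -0.17 ± 0.086 (SE, with a limma adjusted p of 0.844). A second Fn1 probe set was highest in clone 2 without ascorbic acid (1791), with a log2 difference of -0.16. Fbln2 (fibulin 2), Tgfbi and Thbs2 (thrombospondin 2) had log2 differences of -0.023, -0.088 and -0.038. The first turned to 0.011 under median centring and the last to 0.0092 when all probe sets of the gene were averaged. Within groups Fbln2 went with the other members (r 0.90). Tgfbi, a matrix protein named for its induction by TGF-beta, did not on its brightest probe set (r -0.093). The 4 Tgfbi probe sets above the dim limit gave log2 differences of -0.17 to 0.27. The others followed the brightest with an r of only 0.043 to 0.42, so the reading for this gene depends on the probe set.

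Of the small leucine-rich proteoglycans, which bind collagen fibrils, biglycan (Bgn) alone was tested. Its signals were 3212, 4143, 3176 and 3083 with and 4554, 4155, 3621 and 3523 without ascorbic acid, so that clone 2 with ascorbic acid lay within the range of the other group and the remaining clones with ascorbic acid below it. The log2 difference was -0.22 ± 0.10 (SE; limma, adjusted p = 0.844). Both other Bgn probe sets were lower too, by up to -0.33 log2.

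The lysyl oxidases crosslink collagen and elastin. Lox read 2003, 2388, 1689 and 1820.0 with and 2599, 2607, 2117 and 2158 without ascorbic acid, and only clone 2 with ascorbic acid reached into the range of the other group. The 2 means were 1975 ± 304 and 2370.2 ± 269 (SD over 4 clones), and the log2 difference was -0.27 ± 0.11 (SE; limma, unadjusted p = 0.0277, adjusted p = 0.812). A second Lox probe set gave -0.29 and followed the brightest with an r of 0.91, while the third, close to the dim limit, gave 0.068. Its relative Loxl1 read 587 to 798 with a log2 difference of -0.088 (limma, adjusted p = 0.916) and an r with the other members of only 0.063, against 0.90 for Lox.

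The matrix proteases and their inhibitor varied little in common (median pairwise r 0.049 over 3 pairs). Gelatinase A (Mmp2) read 672, 909, 775 and 627 with and 1043, 673, 878 and 750.4 without on the brightest of its probe sets, with wide overlap and a log2 difference of -0.16 (limma, adjusted p = 0.897). Leaving out clone 1 without ascorbic acid gave -0.047, and leaving out clone 2 with it gave -0.26. Its other probe set gave 0.0055 and an r of -0.28 with the brightest. Stromelysin 1 (Mmp3) read 85.4 to 139.6 over the 8 clones, close to the dim limit, with a log2 difference of -0.14 (limma, adjusted p = 0.94).

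Timp3, a tissue inhibitor of metalloproteinases that binds to the matrix, had a log2 difference of -0.033 ± 0.14 on its brightest probe set (SE; limma, adjusted p = 0.979), which was 0.00044 under median centring. Signals there were 838, 777, 533 and 727 with and 723, 741, 864 and 599 without, with full overlap. The dimmest of its 4 probe sets above the dim limit looked different, and is given because of its values: it read 151, 133, 129 and 121 with and 263, 232, 238 and 285 without ascorbic acid. Every clone with ascorbic acid lay far below every clone without, at a log2 difference of -0.86 ± 0.13 (SE). In a limma fit over all 27022 probe sets above the dim limit the adjusted p was 0.0699, rank 14 by p, where 13 probe sets (0.0481%) passed the threshold. The other 3 Timp3 probe sets gave -0.15 to -0.033, so this difference was read by 1 of the 4.

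**Figure D4:**
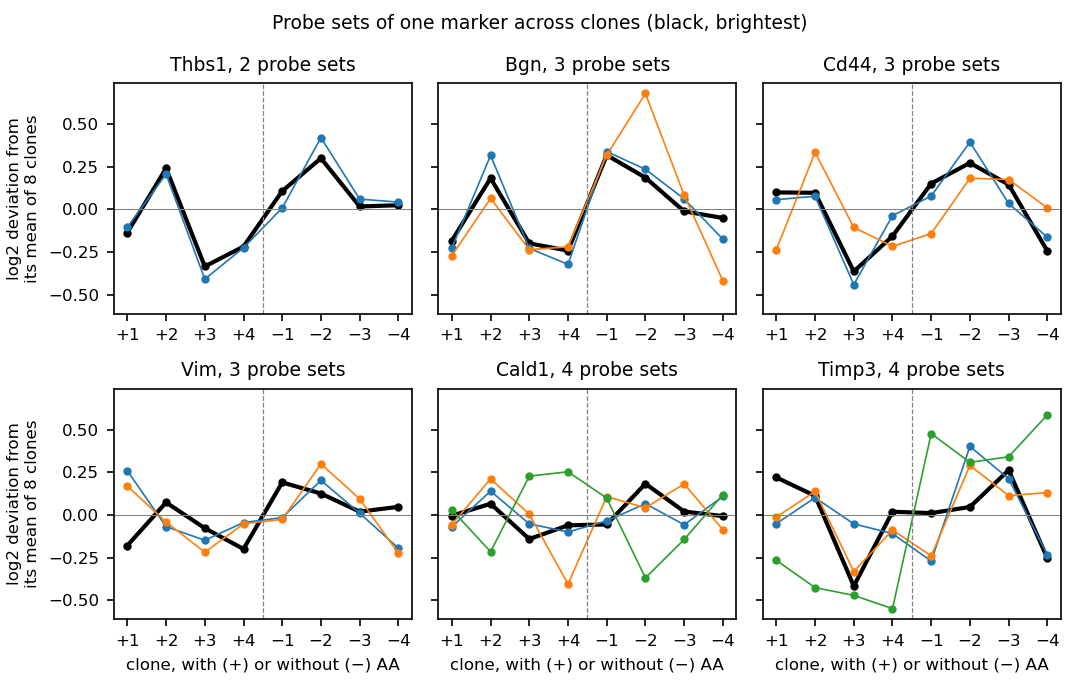
Deviation of each probe set above the dim limit from its own mean of 8 clones, on the log2(signal + 16) scale, for 6 markers with several probe sets, in clones with (+) and without (−) ascorbic acid; the brightest is in black. The lines run together for Thbs1 and Bgn and part for Vim and Cald1, and 1 Timp3 probe set, the green line, steps from 121 to 151 in signal with to 232 to 285 without ascorbic acid.

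Among the chemokines and other secreted proteins all 5 tested members were lower with ascorbic acid, with a median of -0.17 and 0 past the threshold. Follistatin-like 1 (Fstl1), a secreted glycoprotein of mesenchymal cells, read 3100.4, 3468, 3321 and 3332 with and 3607, 4009.7, 3552 and 3671 without. The highest clone with ascorbic acid was below the lowest without. The means of 3305 ± 152 and 3709.7 ± 206 (SD over 4 clones) correspond to a log2 difference of -0.17 ± 0.059 (SE; limma, unadjusted p = 0.0165, adjusted p = 0.767), a small step between tight groups. The second Fstl1 probe set gave -0.19.

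The largest log2 difference of any tested member was that of Ccl2, a chemokine that attracts monocytes and is made by fibroblasts under serum and inflammatory stimuli. It read 53.5, 71.7, 118 and 81.1 with and 142, 113, 149 and 81.8 without ascorbic acid, near the dim limit. The groups overlapped, and the log2 difference of -0.51 ± 0.25 (SE) had a limma adjusted p of 0.844. Within groups it did not follow the other members (r -0.076). Its neighbour Ccl7, a related chemokine below the dim limit, read 96.1, 83.2, 65.2 and 73.6 with and 67.9, 95.1, 87.9 and 70.7 without, without a visible step, and the pentraxin Ptx3, also below it, read 28.7 to 70.5.

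Serpinf1, the secreted anti-angiogenic factor PEDF, followed the mean of the other members more closely than any other tested marker (r 0.99 within groups). Its signals were 902, 1128, 781 and 828 with and 1093, 1193, 986 and 822 without ascorbic acid. Clone 2 was high in both groups, clone 4 without was as low as the low clones with ascorbic acid, and the groups overlapped. The log2 difference was -0.17 ± 0.13 (SE; limma, adjusted p = 0.882), between -0.091 (clone 2 without ascorbic acid left out) and -0.27 (clone 2 with it left out). Igfbp7, which binds insulin-like growth factors weakly and sits in the matrix, had the same shape (r 0.88) and a log2 difference of -0.19 (limma, adjusted p = 0.859). Igfbp4, a soluble binding protein of these growth factors, did not (r -0.15). On its brightest probe set it varied little, from 1619.9 to 2025, with a log2 difference of -0.076 (limma, adjusted p = 0.907). All 5 Igfbp4 probe sets above the dim limit were lower, by -0.32 to -0.076 log2. The next brightest varied more, from 839 to 1775, and gave the -0.32.

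**Figure D5:**
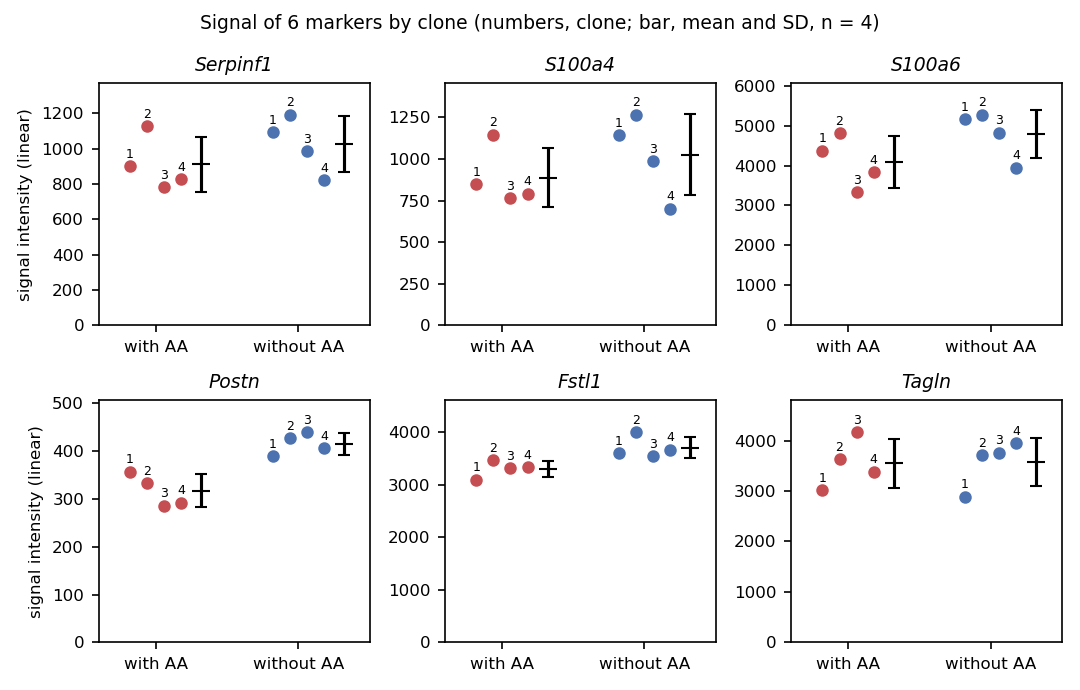
Signal intensity (linear scale from 0) of 6 markers in each clone, numbered 1 to 4 with and without ascorbic acid (AA), with the mean and SD of 4 clones beside the points. Serpinf1, S100a4 and S100a6 are all highest in clone 2 without ascorbic acid, Postn and Fstl1 separate the groups, and Tagln does neither.

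The small binding proteins varied together. Their median pairwise r within groups was 0.79 over 6 pairs, all 4 were lower with ascorbic acid, and 0 passed the threshold. S100a4, a calcium-binding protein also known as fibroblast-specific protein, read 847, 1146, 763 and 792 with and 1142, 1267, 987 and 702 without ascorbic acid. S100a6 (calcyclin), encoded by a neighbouring gene, read 4376, 4808, 3334 and 3838 with and 5163, 5278, 4823 and 3947 without. In both genes clones 1 and 2 without ascorbic acid and clone 2 with it were high and clone 4 without was low, with overlapping groups. The log2 differences were -0.19 ± 0.17 and -0.24 ± 0.12 (SE; limma, adjusted p = 0.897 and 0.844). With clone 2 without ascorbic acid left out that of S100a4 was -0.078, with clone 4 without left out -0.36, and with clone 3 with ascorbic acid left out that of S100a6 was -0.14. The galectin Lgals1 (4822 to 5994, log2 difference -0.037) and annexin A1, Anxa1 (2696 to 3892, -0.066), were likewise highest in clone 2 without ascorbic acid and lowest in clone 4 without.

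The promoters of the 3 members that followed the others most closely and have an entry in the RefSeq promoter table (build GRCm38.p6) are shown because these genes varied together across clones. Each window runs from 250 bases before to 50 after the annotated start and is printed 5′ to 3′ on the strand of the gene. Capitals mark a match to the TATA box TATAAA, the GC box GGGCGG or the AP-1 site TGANTCA on either strand.
Serpinf1, chr11:75422574-75422873, minus strand: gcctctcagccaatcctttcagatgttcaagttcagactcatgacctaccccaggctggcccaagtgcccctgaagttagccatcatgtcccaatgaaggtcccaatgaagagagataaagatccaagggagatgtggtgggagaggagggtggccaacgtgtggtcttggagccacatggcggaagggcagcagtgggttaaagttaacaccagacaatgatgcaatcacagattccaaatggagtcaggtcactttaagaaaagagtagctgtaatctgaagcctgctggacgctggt
S100a4, chr3:90603520-90603819, plus strand: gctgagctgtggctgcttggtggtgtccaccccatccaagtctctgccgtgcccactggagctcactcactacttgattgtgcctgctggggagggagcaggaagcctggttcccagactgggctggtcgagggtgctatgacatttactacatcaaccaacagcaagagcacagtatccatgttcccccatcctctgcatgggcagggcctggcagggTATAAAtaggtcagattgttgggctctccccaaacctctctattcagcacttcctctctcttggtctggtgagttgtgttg
S100a6, chr3:90612644-90612943, plus strand: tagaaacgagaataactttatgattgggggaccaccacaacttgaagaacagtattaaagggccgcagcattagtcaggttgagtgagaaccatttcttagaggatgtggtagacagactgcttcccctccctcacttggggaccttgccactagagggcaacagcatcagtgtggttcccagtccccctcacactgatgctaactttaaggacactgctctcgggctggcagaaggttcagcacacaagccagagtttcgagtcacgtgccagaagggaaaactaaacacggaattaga
S100a4 has 1 match, a TATA box that begins 31 bases before the start, and the other two windows have 0. Of the 21 members with a probe set and a promoter in the table, 8 hold TATAAA, 9 GGGCGG and 2 TGANTCA. Of all 32851 promoters, 13.6%, 35.7% and 7.81% do. Members are counted by gene and the background by promoter, so the shares are not in the same unit. All counts are matches of letters, and the 3 co-varying genes do not share one of these motifs in this window.

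The surface receptors and adhesion proteins also varied together, with a median pairwise r within groups of 0.73 over 15 pairs, while their clone means differed by only -0.040 between groups (median log2 difference -0.088; 2 higher, 4 lower, 0 past the threshold). The PDGF receptors were the 2 members with a higher mean with ascorbic acid. Pdgfra, which also marks primitive endoderm, read 185, 153, 87.1 and 167 with and 129.8, 133, 98.1 and 98.9 without, with clone 3 with ascorbic acid the lowest. This gave a log2 difference of 0.29 ± 0.22 (SE; limma, adjusted p = 0.882), which was 0.18 without clone 1 and 0.50 without clone 3 with ascorbic acid. The lowest of these signals lay close to the dim limit of 93.7. Both other Pdgfra probe sets lay below the limit and gave -0.077 and 0.17. Pdgfrb, the receptor of pericytes and fibroblasts, read 173 to 269 with a log2 difference of 0.045 (limma, adjusted p = 0.975), and lay between -0.041 and 0.16 when single clones were left out.

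Thy1 (CD90), the surface glycoprotein by which fibroblasts are sorted in reprogramming work, read 546, 499, 359 and 517 with and 582, 671, 453 and 402 without ascorbic acid. Clone 3 with ascorbic acid was lowest and clone 2 without highest, and the log2 difference was -0.12 ± 0.17 (SE; limma, adjusted p = 0.942). The hyaluronan receptor Cd44 (771, 770.1, 555 and 643 with, 800.2, 872, 797 and 604 without) and the mesenchymal cadherin Cdh11 (502, 548, 399.6 and 424 with, 532, 607, 496 and 342 without) had the same extremes at the top, and Cdh11 was lowest in clone 4 without. Their log2 differences were -0.16 and -0.057 (limma, adjusted p = 0.886 and 0.974). The receptor tyrosine kinase Axl had the largest negative difference of the group, -0.24 ± 0.12 (SE; limma, adjusted p = 0.844), at 608, 722, 453 and 567 with and 691, 755, 675 and 639 without ascorbic acid; clone 2 with ascorbic acid overlapped the other group. Without clone 3 with ascorbic acid the difference was -0.13.

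The contractile and filament genes had weak coupling (median pairwise r 0.13 over 6 pairs) and 0 past the threshold. Vimentin (Vim), the intermediate filament of mesenchymal cells, read 11170.3, 13313, 11988 and 11014 with and 14442, 13803, 12820.2 and 13077 without on the brightest of its probe sets, with clone 2 with ascorbic acid inside the range of the other group. The log2 difference was -0.19 ± 0.075 (SE; limma, unadjusted p = 0.0252, adjusted p = 0.798). The other Vim probe sets gave -0.0015 and -0.071 and did not follow it across clones (r -0.081 and -0.17), so the difference rests on 1 of 3 probe sets.

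Transgelin (Tagln), an actin-binding protein of smooth muscle and myofibroblasts, went against the other members within groups (r -0.47). It read 3017, 3633, 4172 and 3383 with and 2887, 3717, 3762 and 3948 without ascorbic acid: clone 3 with ascorbic acid, low for most markers, was the highest, and clone 1 without, high for most, was the lowest. Its log2 difference of -0.011 ± 0.11 (SE; limma, adjusted p = 0.992) turned to 0.023 under median centring and 0.0089 with array weights. Smooth muscle actin (Acta2), the other marker of myofibroblasts, read 6113, 6649, 5792 and 5849.7 with and 6268, 6718, 7176 and 5495 without, with an r of 0.72 to the other members and a log2 difference of -0.067 (limma, adjusted p = 0.934). This probe set is of the _s_at class, which can read several transcripts. Caldesmon (Cald1), which binds actin and tropomyosin, varied from 2633 to 3302 with a log2 difference of -0.07 (limma, adjusted p = 0.907); its 4 probe sets above the dim limit gave -0.12 to 0.15.

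Agreement between probe sets was examined for the 16 members with several above the dim limit, since probe sets of a gene are separate readings of the same arrays. In 11 of the 16 all such probe sets were lower with ascorbic acid, and of the 62 member probe sets above the limit 55 were lower. Over all tested genes, with 1 probe set each, 51.4% were lower, and the share over all probe sets was not counted. Because they read the same arrays, the counts of probe sets largely repeat the count of members and are no added evidence. The brightest and the next reading of Thbs1 had an r of 0.95 across clones within groups, those of Lgals1 0.73, of Fstl1 0.66 and of Serpinf1 0.61, while those of Fn1 had 0.072 and those of Axl -0.52. The clone order was therefore repeated by a second probe set in several members, and in others it was not.

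Other mesenchymal genes were read from further lists. The 8 fibroblast collagens were lower with ascorbic acid in 8 of 8, with a median log2 difference of -0.26 and 0 past the threshold. Their mean deviations, -0.12, 0.11, -0.27 and -0.24 in clones 1 to 4 with and 0.27, 0.21, 0.020 and 0.0072 in clones 1 to 4 without, put clone 2 high and clone 3 low with ascorbic acid, as for the markers. Col5a1 (1514 ± 190.2 with, 1779 ± 122 without), Col1a2 (3744 ± 707, 4583 ± 463) and Col3a1 (1261 ± 202, 1605 ± 317; SD over 4 clones) were the 3 with an unadjusted limma p under 0.05 and had adjusted p of 0.767, 0.782 and 0.823. Of 24 tested matrix and TGF-beta partners 21 were lower and 3 higher, with a median of -0.15, 0 past the threshold and 2 with an unadjusted limma p under 0.05. Among them Fbln1 (fibulin 1) and Sparc, a collagen-binding matricellular protein, had log2 differences of -0.22 and -0.21 (limma, adjusted p = 0.767 and 0.798), and Ltbp3, which holds latent TGF-beta in the matrix, -0.26 (0.844). An unadjusted limma p under 0.05 was held by 5.83% of all tested genes, the share beside which the counts of these and the following lists stand.

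Regulators of the mesenchymal state and actomyosin genes were mixed in direction. Of 8 tested mesenchymal transcription factors 3 were higher and 5 lower (median -0.091, 0 past the threshold, 1 with an unadjusted limma p under 0.05). This was Twist1, with means of 201 ± 26.7 and 135 ± 21.1 (SD over 4 clones) and a log2 difference of 0.52, opposite to most markers (limma, adjusted p = 0.749), and Zeb1 was at -0.28 (0.844) and Tcf21 at -0.21 (0.88). Of 18 tested actomyosin genes and targets of serum response factor 8 were higher and 10 lower (median -0.0047, 0 past the threshold and 0 with an unadjusted limma p under 0.05), with Csrp1 at -0.13, Srf at 0.12 and Cnn2 at 0.092 (limma, adjusted p = 0.844, 0.854 and 0.86). The median pairwise r within groups was -0.12 for the transcription factors, 0.15 for the actomyosin genes, 0.20 for the matrix partners and 0.47 for the collagens.

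Markers of other cell types stand beside these values as follows. Of 22 pluripotency genes 18 were lower and 4 higher with ascorbic acid (median -0.11, 0 past the threshold, 4 with an unadjusted limma p under 0.05, all lower). Their mean deviations were -0.14, 0.0051, 0.040 and -0.14 in clones 1 to 4 with and 0.092, 0.078, 0.016 and 0.058 in clones 1 to 4 without. Clones 1 and 4 with ascorbic acid were thus low and clones 1 and 2 without were high for pluripotency genes and fibroblast markers alike, while clone 3 with ascorbic acid, the lowest for the markers, was not low for pluripotency genes. The 15 epithelial genes had a median of 0.0012 (8 higher, 7 lower, 0 past the threshold and 0 with an unadjusted limma p under 0.05). Their mean deviations were -0.073, 0.039, 0.11 and -0.048 in clones 1 to 4 with ascorbic acid. In clones 1 to 4 without it they were -0.25, 0.028, -0.024 and 0.22. The sign was opposite to the markers in clone 3 with and clones 1, 3 and 4 without, and the same in the other clones. Proliferation genes had a median of -0.022 (5 higher, 7 lower of 12, 0 at either p). They lay between -0.17 in clone 2 without ascorbic acid and 0.12 in clone 4 without. The sign was opposite to the markers in that pair of clones and in clone 3 with ascorbic acid, and the same in the other clones. Actin probe sets at the 3' and 5' ends, compared as a gauge of RNA integrity, had ratios from 1.14 in clone 4 without to 1.28 in clone 3 with ascorbic acid, both low in the markers. The part of these differences in the order of the clones was not tested.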

How the data were processed

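The authors deposited 1 linear signal intensity for each probe set and array. Per the submitters' processing notes they were made with GCOS, the Affymetrix operating software; its version was not given in the sources used here. In the deposited values each array has a mean of 500 after trimming 2% at each end. Of 45101 probe sets, 64 controls were left out, and 34945 carry 1 gene symbol, 932 several and 9160 none; the identifiers of all 36 members carry the same symbol in RefSeq.

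Signals were used as log2(signal + 16), so folds understate changes of dim genes. The dimmest 40% of probe sets, by mean log2 over all arrays, were left out. Groups were compared with limma 3.58.1 in R 4.3.3 (lmFit, eBayes with trend, two-sided). P-values were adjusted by Benjamini-Hochberg over 13125 genes, with a threshold of 0.05. Figures used matplotlib 3.10.9. The scripts were tested on simulated data. The number of arrays limits the precision.

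Members and lists were chosen with earlier results of these data known, so no list is independent evidence, and none was tested as a set. Named are all members, up to 3 genes of each other list by smallest p, and the 10 genes most like the mean of the members. The Timp3 probe set was named after its values were seen. Alternatives were other scalings, pseudocounts of 1 and 64, filters, probe set rules, eBayes options, array weights, a clone number block and leaving out each clone.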

Additional observations from a re-analysis of the deposited data

Results flagged for a closer look

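Of 74 groups of 4 clones examined for a clone far from the rest (36 members in each group, and the per-clone mean of the markers), 1 (1.35%) held one, where chance gives about 5%. Bgn, biglycan, had a signal of 4143 in clone 2 with ascorbic acid, and the remaining clones of that group lay at 3083 to 3212. The other Bgn probe sets also read highest in that clone among the clones with ascorbic acid, at 2770.4 and 2134. No other member and not the mean of the markers held such a clone.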

How the results depend on the processing

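No member passed the threshold under any of the 20 other settings (12 other choices and 8 single clones left out). The smallest adjusted p of a member was 0.496, without clone 2 with ascorbic acid; 1 to 12 members had an unadjusted limma p under 0.05, with 1 of 32 members and 658 of 13125 genes under median centring and 12 of 32 members and 901 of 13124 genes without clone 2 with ascorbic acid. Members lower with ascorbic acid numbered 24 to 30 when single clones were left out and 27 to 33 of 28 to 36 tested otherwise, the median log2 difference was -0.19 to -0.10, and the difference of the per-clone means was -0.19 to -0.077. The median pairwise r was 0.31 to 0.49 without single clones, 0.48 under quantile normalization and 0.54 under median centring; the cause was not tested. Genes past the threshold numbered 2 to 4 without single clones, and 1 without the trend and 1 with robust estimation, against 3.

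Of 632 member results under other settings 23 changed sign, in 9 members that all had small differences. Under median centring Fbln2 was 0.011, Timp3 0.00044 and Tagln 0.023; Thbs2 was 0.0092 with the mean of probe sets, and Tagln 0.0089 with array weights. Leaving out single clones gave -0.10 to 0.038 for Fbln2, -0.15 to 0.089 for Thbs2, -0.12 to 0.10 for Timp3, -0.041 to 0.16 for Pdgfrb, -0.24 to 0.0099 for Thy1, -0.22 to 0.049 for Cdh11, -0.11 to 0.064 for Tagln, -0.11 to 0.0097 for Lgals1 and -0.17 to 0.0068 for Anxa1.

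Alternatives for the dimmest Timp3 probe set were chosen after seeing the data. Its log2 difference stayed between -0.93 and -0.69, and its adjusted p was 0.0352 without the trend and 0.0543 to 0.359 otherwise; the 60% filter removed it. Same-numbered clones of the 2 groups did not deviate together (r -0.17 to 0.012 over all tested genes). Of the 4 clones with ascorbic acid, 0 correlated best with their own number. Whether same-numbered clones were derived or handled together is not in the sample titles, and these r cannot decide it. With the clone number as a replicate block 3 genes and 0 members passed, the smallest adjusted p of a member being 0.889, and 10 of 32 members and 682 of 13125 genes had an unadjusted p under 0.05. The limits of these data are 4 clones per group, no measured feeder share and no fibroblast array.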

Other observations

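Outside the list, 13093 tested genes were ranked by how closely their log2 values, group means removed, followed the mean of the 32 markers over the 8 clones. The values are a description with no test, since all use the same 8 arrays. The 10 highest were Fam91a1, Chac1, Cavin2, Col5a2, Oaf, Ubtf, Flrt2, Ptgs2, Ccnd2 and Tmem222, with r from 0.96 to 0.995. Fam91a1, Chac1, Ptgs2 and Tmem222 had higher means with ascorbic acid, opposite to most markers, and the rest had lower ones. The log2 differences of these higher genes were 0.10, 0.17, 0.069 and 0.096 (limma, adjusted p = 0.847, 0.86, 0.968 and 0.894). Their r over the 8 clones with group means kept was 0.40, 0.49, 0.73 and 0.41. Fam91a1 read 1916, 2063, 1798 and 1876 with and 1839, 1889, 1764 and 1624 without, and Chac1 505, 613, 454 and 511 with and 499, 519, 451 and 376 without. Of the others Col5a2, a fibrillar collagen chain, is on the collagen list; it read 1129, 1495, 996 and 1081 in clones 1 to 4 with and 1642, 1520.3, 1379 and 1095 in clones 1 to 4 without ascorbic acid. Cavin2, a coat protein of caveolae, read 293, 358, 231 and 237 with and 339, 392, 308 and 235 without. Ptgs2, the inducible cyclooxygenase, read 399, 486, 366 and 365 with and 452, 454, 368 and 281 without, and Ccnd2, a D-type cyclin, 1149, 1440.4, 997 and 963 with and 1343, 1528, 1180.2 and 1026 without. Among the 100 genes most like the mean were 2 of the 8 collagens and 3 of the 24 matrix and TGF-beta partners. Every other list had 0, the mesenchymal transcription factors and actomyosin genes as well as the pluripotency, epithelial and proliferation genes. At 100 out of 13093 genes, most lists of this size would hold 0.

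Lists of further cell types had 0 members past the threshold in limma, and 3 in all had an unadjusted p under 0.05. Of all tested genes 5.83% had such a p. The 10 endothelial, smooth muscle and pericyte genes were lower in 8 and higher in 2 (median -0.10), with desmin (Des), the muscle intermediate filament, at mean signals of 347 ± 76.5 with and 509 ± 85.0 without (SD over 4 clones; unadjusted p = 0.00537, adjusted p = 0.749), Mcam at -0.25 and Cspg4 at 0.34. The 8 macrophage and blood genes were lower in 7 and higher in 1 (median -0.16), with Laptm5 at -0.26, Cd74 at -0.27 and Cd68 at -0.14; the first 2 had an unadjusted p under 0.05. The 13 primitive endoderm genes had a median of -0.0052 (6 higher, 7 lower), with Pdgfa, a ligand of Pdgfra, at -0.19, Gata6 at 0.31 and Amn at -0.25. The 9 trophectoderm genes had a median of -0.12 (3 higher, 6 lower), with Rhox9 at -0.42, Wnt7b at -0.18 and Hand1 at 0.20. In the lists described earlier, Tbx3, Klf2 and Tfcp2l1 had the smallest p among pluripotency genes (-0.28, -0.30 and -0.35), Cldn4, Pkp2 and Cldn6 among epithelial genes (0.23, -0.14 and -0.19), and Bub1, Pcna and Plk1 among proliferation genes (0.086, -0.10 and 0.12). All these are log2 differences, with minus without ascorbic acid.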
